A study of Mus musculus with 75 samples.

Results

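The 10 genes described here encode repressors of the circadian clock, and they were followed in ribosome-bound RNA of the mouse visual cortex. They were found by symbol among the 14261 genes of the deposited table. They were Per1, Per2 and Per3 (the period genes), Cry1 and Cry2 (the cryptochromes), Ciart (also called Chrono), Nr1d1 and Nr1d2 (the nuclear receptors REV-ERBα and REV-ERBβ), and Bhlhe40 and Bhlhe41 (the basic helix-loop-helix factors DEC1 and DEC2). All 10 were measured in all 73 libraries used, and none was listed at 0 in any of them. In the mammalian clock, BMAL1 with CLOCK or NPAS2 switches on genes through E-boxes, and the period, cryptochrome, Ciart, Rev-erb and Bhlhe genes are among those targets. PER and CRY proteins then return to the nucleus and repress BMAL1 and CLOCK, CIART binds BMAL1 as a further repressor, and the BHLHE proteins occupy E-boxes themselves. The REV-ERB proteins close another loop by repressing the Bmal1 gene (Arntl) through ROR elements. Per1 and Per2 are also known for their induction by light in the suprachiasmatic nucleus, the master clock of the hypothalamus, and Per1 carries cAMP response elements.

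Mice aged 8 weeks on the C57BL/6 strain were heterozygous for Rpl22-HA, the RiboTag allele, and for 1 of 5 Cre alleles named Emx, Gad2, Sst, Vip and Pv. Cre activates the HA tag of the Rpl22 allele, so that cells in which Cre has acted carry HA-tagged ribosomes. The RNA bound to these ribosomes was purified from the visual cortex. Emx-Cre is known to act in cortical excitatory neurons and also in cortical glia, Gad2-Cre in most inhibitory neurons, and the other three in the PV, SST and VIP classes of inhibitory neurons. Each line was studied after dark housing, after dark housing followed by 1, 3 or 7.5 h of light, and in standard housing, and each library came from a pool of 3 mice. Of the 25 groups, 23 had 3 libraries, and SST dark and SST standard had 2 (replicates 1 and 3). The labels give no clock time of collection, so hours of light and time of day cannot be told apart in what follows.

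Values are the authors' normalized read counts, called normalized reads here, which are not scaled for gene length, so levels are compared between samples and not between genes. The libraries held 7.28 to 52.3 M gene reads (median 24.8), with a range of 8.25 to 24.8 M at 7.5 h and 7.28 to 30.6 M in standard housing against 20.6 to 52.3 M in the dark. The lowest value of any of the 10 genes corresponded to 21 reads (Ciart). A gene was called changed at a 5% false discovery rate in a limma model of log2(value + 1) fitted to 1 line, with p-values adjusted over all genes of that line. Libraries with the same replicate number deviated together from their group means, so each comparison was also fitted with the replicate number in the model. That result is given wherever it changes a call. Log2 differences from dark are always those of the fit without the replicate number, which alters them only in SST. In bulk RNA of this kind, fewer cells of a type and less RNA per cell cannot be told apart. The summed level of 6 inhibitory neuron markers was 3942 to 6014 in Emx libraries and 105250 to 176823 in the other lines. Sums of 4 markers per class were highest in the line of that class, but other lines also held them. PV markers summed to 50204 to 70010 in PV and 12606 to 16248 in SST libraries. SST markers summed to 106189 to 147996 in SST and 14959 to 25460.5 in VIP libraries. VIP markers summed to 64002 to 146438 in VIP libraries and at most 14142 elsewhere, in Gad2.

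The sequences just before the transcription starts of Per1, Ciart, Cry1 and Nr1d1 are shown because these genes gave the early and the late responses described below. Each run holds the 250 bases before a start in RefSeq (GRCm38.p6), written 5′ to 3′ on the gene's strand, and capitals mark the letters of 4 short motifs on either strand: the E-box CACGTG, an E-box variant CACGTT, the cAMP response element core TGACGT and the ROR element core AGGTCA. Per1 has 2 annotated starts with a sequence in the table, so both are given. The 2 Per1 windows lie at chr11:69098699-69098948 and chr11:69099902-69100151 on the plus strand. Ciart lies at chr3:95882229-95882478, Cry1 at chr10:85185055-85185304 and Nr1d1 at chr11:98775378-98775627, all 3 on the minus strand.
Per1, upstream start: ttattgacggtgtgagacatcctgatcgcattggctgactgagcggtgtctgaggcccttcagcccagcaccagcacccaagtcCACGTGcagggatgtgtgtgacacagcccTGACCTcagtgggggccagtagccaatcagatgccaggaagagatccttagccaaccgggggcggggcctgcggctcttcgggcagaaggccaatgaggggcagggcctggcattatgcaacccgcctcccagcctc
Per1, downstream start: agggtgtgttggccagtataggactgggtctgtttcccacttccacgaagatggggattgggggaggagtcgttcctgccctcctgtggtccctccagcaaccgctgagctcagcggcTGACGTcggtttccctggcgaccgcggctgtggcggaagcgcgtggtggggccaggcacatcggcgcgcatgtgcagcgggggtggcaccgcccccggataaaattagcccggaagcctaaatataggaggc
Ciart: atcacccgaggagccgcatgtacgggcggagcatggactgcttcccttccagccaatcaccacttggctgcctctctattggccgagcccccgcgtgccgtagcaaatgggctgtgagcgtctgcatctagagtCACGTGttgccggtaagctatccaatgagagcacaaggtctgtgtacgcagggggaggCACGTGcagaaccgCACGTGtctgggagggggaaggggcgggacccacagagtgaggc
Cry1: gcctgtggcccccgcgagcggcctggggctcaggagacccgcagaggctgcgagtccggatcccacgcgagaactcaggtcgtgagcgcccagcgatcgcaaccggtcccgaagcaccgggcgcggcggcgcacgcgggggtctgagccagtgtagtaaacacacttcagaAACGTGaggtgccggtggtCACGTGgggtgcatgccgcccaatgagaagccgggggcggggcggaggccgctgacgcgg
Nr1d1: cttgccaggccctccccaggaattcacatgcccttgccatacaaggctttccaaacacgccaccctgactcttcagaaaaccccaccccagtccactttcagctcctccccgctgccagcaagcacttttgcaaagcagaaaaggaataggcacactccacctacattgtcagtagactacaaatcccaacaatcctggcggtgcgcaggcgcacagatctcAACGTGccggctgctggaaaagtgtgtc

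The E-box stood 166 bases before the upstream Per1 start, 60 bases before the Cry1 start, and 116, 58 and 44 bases before the Ciart start. CACGTG occurred in the windows of 6.86% of the 27025 genes in the RefSeq table, and in 4 of the 8 clock repressor genes with a window (Per1, Cry1, Ciart and Bhlhe41). The variant CACGTT stood 79 bases before the Cry1 start and 28 bases before the Nr1d1 start, and was also found for Cry2. It occurred for 4.50% of genes. The TGACGT core stood 132 bases before the downstream Per1 start and in no other window of the 8 genes, against 7.29% of all genes. The AGGTCA core, present for 15.8% of all genes, was found for Per1 (137 bases before the upstream start) and Nr1d2. The Per3 window held none of the 4. A match describes these letters only, and Per2 and Bhlhe40 were not matched to a window.

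After 1 h of light the calls ran in 1 direction, as most calls over all genes did. Of the 50 values (10 genes in 5 lines), 6 were called higher and none lower, that is Per1, Ciart and Bhlhe40 in 2 lines each. Of all genes in the 5 lines together, 0.325% were called (0.323% higher and 0.00282% lower). Fitted with the replicate number, 19 were called, all higher, against 1.33% of all genes (1.13% higher and 0.2% lower). In 27 of 50 values every light library lay above every dark library, and in none did every light library lie below, against 4.14% and 3.95% of all genes. The median of the 50 log2 differences was 0.36, and the median over all genes lay between -0.03 and 0 in each of the 20 comparisons with dark.

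At 3 h and 7.5 h the genes parted. After 3 h, 4 of 50 values were called, all higher (Per2 in 3 lines and Cry2 in 1). Of all genes, 0.393% were called (0.372% higher and 0.0211% lower). Adding the replicate number gave 19, with 15 higher and 4 lower, against 4.8% of all genes (3.3% higher and 1.5% lower). After 7.5 h, 10 were called, 7 higher (Per2, Cry1 and Bhlhe40) and 3 lower (Ciart, Nr1d1 and Nr1d2). This compares with 1.18% of all genes (0.884% higher and 0.294% lower). Adding it gave 27, with 15 higher and 12 lower, against 12.1% of all genes (6.99% higher and 5.14% lower), a share that was 1.61% in VIP and 25.9% in Emx. Every light library lay above every dark one in 20 of 50 values at 3 h and 17 at 7.5 h, against 5.85% and 7% of all genes, and below in 2 and 12, against 6.07% and 7.71% of all genes. The median of the 50 log2 differences was 0.27 at 3 h and 0.02 at 7.5 h.

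**Figure D1:**
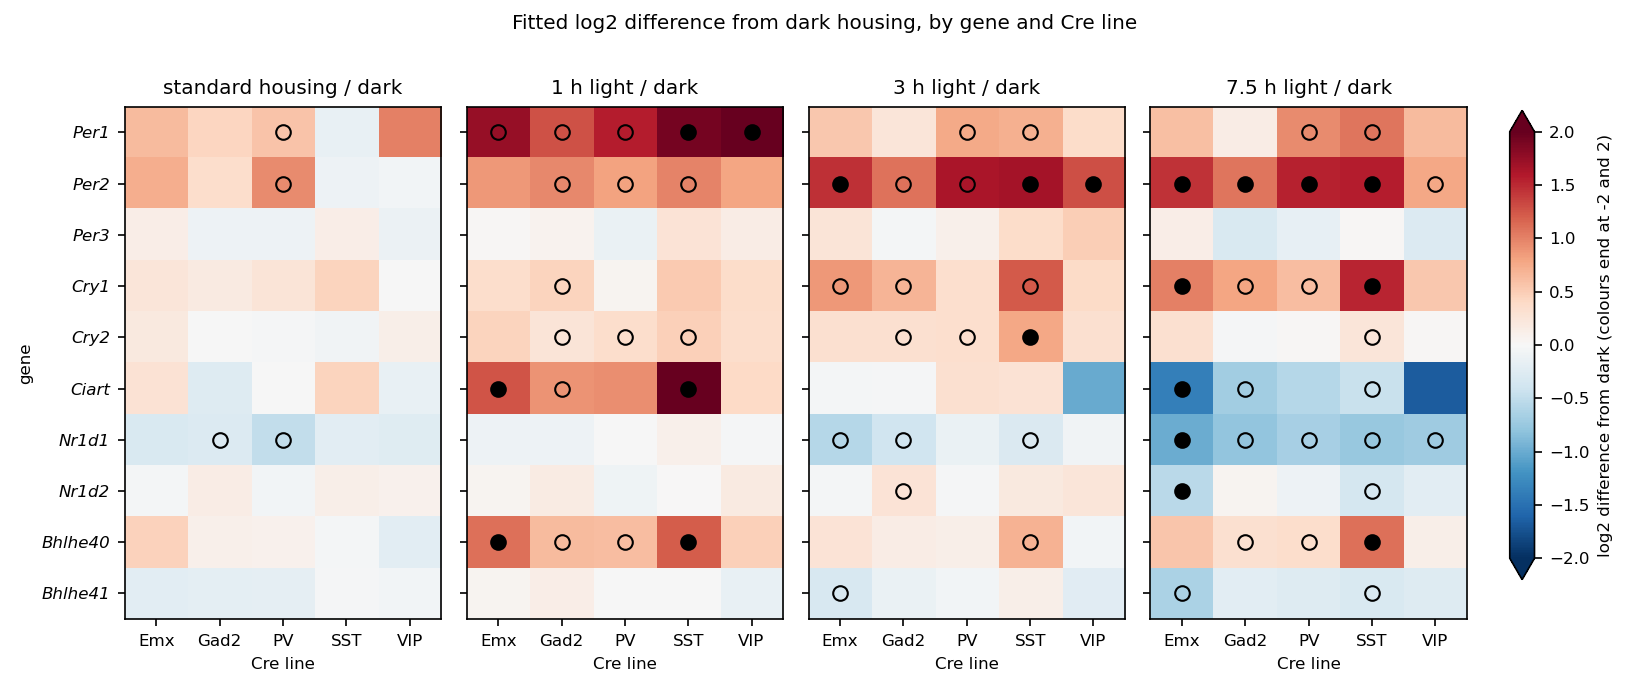
Fitted log2 difference from dark housing for the 10 genes (rows) in the 5 Cre lines (columns), with 1 panel each for standard housing, 1 h, 3 h and 7.5 h of light. Red is higher and blue lower than dark, a filled circle marks a call at a 5% false discovery rate, and an open circle a call made only with the replicate number in the model. Filled circles at 1 h stand at Per1, Ciart and Bhlhe40, Per2 is red in all 5 lines at 3 h and 7.5 h, and Ciart and Nr1d1 are blue in all 5 lines at 7.5 h.

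Per1, which encodes a core repressor of the clock, gave a median log2 difference of 1.74 over the 5 lines after 1 h of light, the largest median of the 10 genes at that time. In the VIP line it stood at 6046, 9249 and 6776 normalized reads after 1 h of light, against 1978, 1536 and 1411 in the dark. SST libraries held 4864, 5603 and 3329 after 1 h, against 1355 and 1052 in the dark. The lowest light library lay above the highest dark library in both lines. The difference was 2.15 ± 0.32 on the log2 scale (± standard error here and below) in VIP, or 4.45-fold (adjusted p = 0.00267), and 1.91 ± 0.34 in SST (adjusted p = 0.0345). The VIP call held without any 1 of its libraries (adjusted p at most 0.0319), and the SST call ended without 1 h light replicate 1 or 2 or dark replicate 1 or 3 (adjusted p 0.142 to 0.382).

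Per1 was also higher after 1 h in the other lines without overlap. Emx libraries held 6055, 7506 and 4905 after 1 h, against 2466, 1832 and 1317 in the dark. For Gad2 the values were 4231, 4016 and 2491 after 1 h, against 1415, 1886 and 1111 in the dark. PV libraries held 3220.1, 4609 and 2343 after 1 h, against 1159.5, 1413 and 814 in the dark. None of these 3 was called without the replicate number (adjusted p = 0.0576 in Emx, 0.241 in Gad2 and 0.0712 in PV), and all were called with it (adjusted p = 0.0450, 0.00656 and 1.92e-13 in the same order of lines). Paired by replicate number, the 1 h library lay above its dark partner in 14 of 14 pairs over the 5 lines, with ratios of 2.13 to 6.02 (median 3.11). All 14 pairs were higher for 1.25% of all genes at 1 h.

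The Per1 level fell between 1 h and 3 h in VIP. VIP libraries held 2237, 2237 and 1839.8 after 3 h, against 6046, 9249 and 6776 after 1 h, and did not overlap. The log2 difference of 3 h from 1 h was -1.79 ± 0.32 (adjusted p = 0.0289), and the call ended without 1 h light replicate 1 or 2 or 3 or 3 h light replicate 1 or 2 or 3 (adjusted p 0.0588 to 0.233). With the replicate number in the model Per1 fell between 1 h and 3 h in 4 of 5 lines, the exception being Emx (log2 difference -1.20, adjusted p = 0.110). With the replicate number Per1 was still called above dark at 3 h in PV and SST (log2 differences 0.77 and 0.70 without it). At 7.5 h it was above dark in PV (2403, 2551 and 1532 at 7.5 h, against 1159.5, 1413 and 814 in the dark) and in SST (2552, 3503 and 1754 at 7.5 h, against 1355 and 1052 in the dark). Both differences were called only with the replicate number in the model (adjusted p = 6.21e-09 in PV and 4.37e-07 in SST).

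Per2, the partner of Per1 in the repressor complex, reached its highest mean later than Per1, at 3 h, and stayed high at 7.5 h. At 1 h Per2 was already above its dark partner in 14 of 14 same-numbered pairs, as given below. Emx libraries held 1519, 1729.7 and 1340.3 after 3 h of light and 1691, 1432 and 1384 after 7.5 h, against 758, 492 and 448 in the dark. In the SST line the values were 699, 922 and 651 after 3 h and 666, 851 and 611 after 7.5 h, against 244 and 226 in the dark. VIP libraries held 1677, 1433 and 875 after 3 h and 1025, 1096 and 654 after 7.5 h, against 553, 478 and 548 in the dark. Light and dark libraries did not overlap at either time in any of these lines. At 3 h the rise was 1.46 ± 0.28 on the log2 scale in Emx (adjusted p = 0.0181), 1.67 ± 0.24 in SST (adjusted p = 0.00632) and 1.28 ± 0.26 in VIP (adjusted p = 0.0471).

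The same held for Per2 in the Gad2 and PV lines. Gad2 libraries held 585, 409 and 424 after 3 h and 565, 442 and 387 after 7.5 h, against 265, 207 and 189 in the dark. PV libraries held 451, 524 and 349 after 3 h and 432, 486 and 317 after 7.5 h, against 210.4, 139 and 92.8 in the dark. Every light library again lay above every dark one. At 7.5 h Per2 was called in Emx (log2 difference 1.44, adjusted p = 0.0104), Gad2 (1.07, adjusted p = 0.0432), PV (1.53, adjusted p = 0.0499) and SST (1.57, adjusted p = 0.00652). The 3 values not called at these times (3 h in Gad2 and PV, 7.5 h in VIP) had adjusted p = 0.0814, 0.0846 and 0.615, and with the replicate number in the model 6.33e-07, 7.87e-07 and 0.0479.

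Per2 lay above its dark partner in 14 of 14 same-numbered pairs at 1 h, 14 of 14 at 3 h and 14 of 14 at 7.5 h, with median ratios of 1.76, 2.87 and 2.26. All 14 pairs were higher for 1.25% of all genes at 1 h, 2.66% at 3 h and 4.43% at 7.5 h. After 1 h it was called with the replicate number in Gad2, PV and SST (log2 differences 0.96, 0.80 and 0.99 without it). Its mean was highest at 3 h, among dark and the 3 light times, in all 5 lines. Between 3 h and 7.5 h no difference in Per2 was called in any line with or without the replicate number. The Per2 calls made without the replicate number each ended when some single library was left out. At 3 h the Emx call ended without 3 h light replicate 1 or 2 or dark replicate 2 or 3 (adjusted p 0.0558 to 0.116), the SST call ended without dark replicate 1 or 3 (adjusted p 0.0624 to 0.0939), and the VIP call ended without 3 h light replicate 1 or 2 or dark replicate 1 or 2 or 3 (adjusted p 0.124 to 0.246). At 7.5 h the Emx call ended without 7.5 h light replicate 1 or dark replicate 2 or 3 (adjusted p 0.0522 to 0.0555) and the SST call ended without dark replicate 1 or 3 (adjusted p 0.0567 to 0.0833). The Gad2 call at 7.5 h ended without 7.5 h light replicate 1 or 2 or 3 or dark replicate 1 or 2 or 3 (adjusted p 0.0529 to 0.240), and the PV call ended without 7.5 h light replicate 1 or 2 or 3 or dark replicate 2 or 3 (adjusted p 0.0669 to 0.242).

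Per3, the third period gene, gave no call in any line at any light time under either model. Its same-numbered pairs were divided at 1 h, with 7 higher and 7 lower, and the 5 log2 differences ran from -0.14 to 0.27. In VIP libraries it stood at 816, 746 and 814 after 3 h, against 491, 633 and 571 in the dark, without overlap but not called (log2 difference 0.49, adjusted p = 0.831, and 0.264 with the replicate number).

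**Figure D2:**
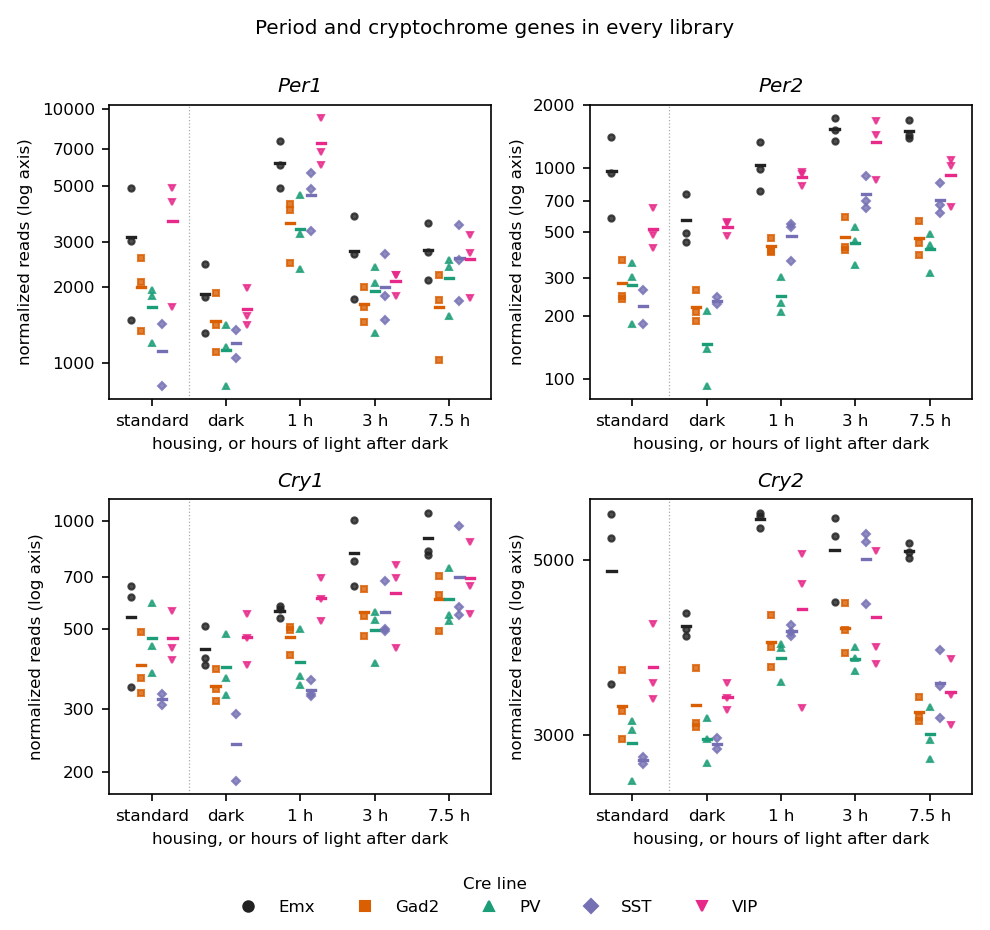
Normalized reads (log axis) of Per1, Per2, Cry1 and Cry2 in every library, by housing condition, with dark and the 3 light times in order to the right of the dotted line. Points are libraries, colours and shapes the Cre lines, and bars group means. Per1 is highest at 1 h, Per2 at 3 h and Cry1 at 7.5 h in each of the 5 lines.

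Cry1, the stronger of the cryptochrome repressors in the clock, had its highest mean at 7.5 h in all 5 lines. SST libraries held 548, 576 and 967 after 7.5 h of light, against 189.8 and 291 in the dark. Emx libraries held 802, 827 and 1055 after 7.5 h, against 417, 397 and 512 in the dark. Neither line overlapped, and both were called, with a log2 difference of 1.52 ± 0.26 in SST (adjusted p = 0.0132) and 1.01 ± 0.23 in Emx (adjusted p = 0.0216). The SST call ended without dark replicate 1 (adjusted p 0.204), and the Emx call ended without 7.5 h light replicate 1 or 3 or dark replicate 1 or 2 (adjusted p 0.0512 to 0.102). Gad2 libraries held 496, 625 and 704 after 7.5 h, against 315, 341 and 387 in the dark, and PV libraries held 529, 547 and 741, against 329, 367 and 485 in the dark. Both were called only with the replicate number in the model (adjusted p = 6.18e-06 in Gad2 and 0.000592 in PV, against 0.105 and 0.543 without it). The VIP difference of 0.53 was called by neither (adjusted p = 0.972, and 0.141 with the replicate number).

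At 3 h Cry1 was already higher in Emx, Gad2 and SST with the replicate number in the model (adjusted p = 0.00102, 0.000112 and 6.27e-06), with log2 differences of 0.87, 0.67 and 1.23 and adjusted p = 0.105, 0.447 and 0.0906 without it. At 1 h the only Cry1 call was in Gad2 with the replicate number (log2 difference 0.45, adjusted p = 0.0137). All 14 same-numbered pairs were higher at each of the 3 light times, with median ratios of 1.30 at 1 h, 1.55 at 3 h and 1.71 at 7.5 h. All 14 pairs were higher for 1.25%, 2.66% and 4.43% of all genes at these times. The lowest Cry1 ratio was 1.009 at 1 h and 1.11 at 3 h. Of the 14 Cry1 pairs at 7.5 h, the lowest ratio was 1.38 and the highest 3.33.

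Cry2, the other cryptochrome, differed from dark by smaller amounts. In the SST line it stood at 4396, 5271 and 5402 after 3 h, against 2881 and 2969 in the dark, without overlap. That was its only call against dark without the replicate number (log2 difference 0.77 ± 0.14, adjusted p = 0.0376), and it ended without 3 h light replicate 2 or 3 or dark replicate 1 or 3 (adjusted p 0.172 to 0.335). In the fit with the replicate number Cry2 was higher in Gad2, PV and SST at both 1 h and 3 h, by 0.27 to 0.77 on the log2 scale without it, and fell again between 3 h and 7.5 h in the same 3 lines. All 14 pairs were higher at 1 h (median ratio 1.29) and at 3 h (1.29), and 11 of 14 at 7.5 h (1.05). The lowest Cry2 ratio was 1.004 at 1 h and 1.034 at 3 h. All 14 pairs were higher for 1.25% of all genes at 1 h and 2.66% at 3 h. At 7.5 h Cry2 was called in SST with the replicate number (adjusted p = 0.0398, log2 difference 0.25 without it).

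Ciart, whose window holds 3 E-boxes, had its highest mean at 1 h and its lowest at 7.5 h in all 5 lines. Emx libraries held 745, 877 and 803 after 1 h, 280.0, 355 and 346 after 3 h and 112, 148 and 132 after 7.5 h of light, against 310.5, 323 and 377 in the dark. The 1 h libraries lay above all dark libraries and the 7.5 h libraries below all of them, whereas the 3 h libraries overlapped them. The rise at 1 h was 1.26 ± 0.16 on the log2 scale (adjusted p = 0.000535). At 7.5 h it had fallen by 1.37 ± 0.16 relative to dark (adjusted p = 0.000271). Between the light times it fell by 1.31 from 1 h to 3 h (adjusted p = 0.00542), by 1.32 from 3 h to 7.5 h (adjusted p = 0.00264) and by 2.63 from 1 h to 7.5 h (adjusted p = 3.52e-07). All 5 of these Emx calls held without any 1 library, with adjusted p of at most 0.0404.

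Ciart was also called in the SST and Gad2 lines. SST libraries held 349.5, 519 and 457 after 1 h and 44.0, 131 and 74.2 after 7.5 h, against 88.9 and 119 in the dark. Gad2 libraries held 299.8, 263 and 365 after 1 h and 92.1, 109 and 105 after 7.5 h, against 178, 177 and 142 in the dark. In SST only the 1 h libraries stood clear of the dark ones, and in Gad2 both times did. The 1 h rise was called in SST (log2 difference 2.07 ± 0.39, adjusted p = 0.0438), but the call ended without 1 h light replicate 1 or 2 or 3 or dark replicate 1 or 3 (adjusted p 0.0798 to 0.534). From 1 h to 7.5 h Ciart fell by 2.52 on the log2 scale in SST (adjusted p = 0.00508) and by 1.58 in Gad2 (adjusted p = 0.00309), and these 2 calls held without any 1 library (adjusted p at most 0.0431). Ciart was, in the fit with the replicate number, also higher at 1 h in Gad2 (adjusted p = 0.00751) and lower at 7.5 h in Gad2 (adjusted p = 0.0183) and SST (adjusted p = 0.0491).

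The PV and VIP lines gave no Ciart call against dark. In PV it stood at 298, 375 and 326 after 1 h and 93.7, 227 and 73.4 after 7.5 h, against 128, 241 and 171 in the dark. VIP libraries held 188, 384 and 226 after 1 h and 102, 47.8 and 44.1 after 7.5 h, against 117, 277 and 221 in the dark. Of these 4 light groups, the 1 h libraries of PV and the 7.5 h libraries of VIP did not overlap the dark ones. No Ciart difference from dark was called in either line under either model. Over all lines the 1 h library lay above its dark partner in 14 of 14 pairs and the 7.5 h library below it in 14 of 14 (median ratios 2.02 and 0.505), where all 14 pairs were higher at 1 h for 1.25% and lower at 7.5 h for 2.36% of all genes. Ciart was the gene with the fewest reads, and the 7.5 h libraries were among the shallower ones, as given above. The part of depth in its 7.5 h values was not tested.

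Nr1d1, the REV-ERBα gene, was lower at the later light times. Emx libraries held 6227, 6673 and 4544 after 3 h and 4074, 5236 and 3644 after 7.5 h, against 10210.0, 8924 and 6726 in the dark. Both light groups lay below every dark library. The 3 h difference was called with the replicate number only, as it was in Gad2 and SST. Without it the log2 differences were -0.57 in Emx, -0.41 in Gad2 and -0.28 in SST. The fall at 7.5 h was called (log2 difference -0.99 ± 0.21, adjusted p = 0.0136), and the call ended without 7.5 h light replicate 1 or 3 or dark replicate 1 or 2 (adjusted p 0.0539 to 0.0650). Against 1 h (8222, 9008 and 6734) the 7.5 h level was lower by a log2 difference of -0.89 (adjusted p = 0.0356), a call that ended without 1 h light replicate 1 or 2 or 3 or 7.5 h light replicate 1 or 3 (adjusted p 0.0702 to 0.167).

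At 7.5 h the other lines went the same way for Nr1d1. Gad2 libraries held 3512, 2895 and 2152 at 7.5 h, against 5865, 5100.0 and 3786 in the dark. PV libraries held 2814, 2691 and 1998 at 7.5 h, against 4312, 4384 and 3155 in the dark. SST libraries held 2513, 2832 and 1593 at 7.5 h, against 4249 and 3424 in the dark. Every light library of these 3 lines lay below every dark one, and the library of replicate 3 was the lowest in each group. VIP libraries held 4647, 4476 and 2995 at 7.5 h, against 6488, 7416 and 5602 in the dark, again without overlap. None of these 4 lines was called without the replicate number (adjusted p = 0.493 for VIP, 0.289 for SST, 0.541 for PV and 0.269 for Gad2), and all 4 were called with it (adjusted p = 0.000683 for VIP, 1.67e-06 for SST, 1.07e-06 for PV and 7.76e-10 for Gad2). The 7.5 h library lay below its dark partner in 14 of 14 pairs, with ratios of 0.399 to 0.716 (median 0.589). All 14 pairs were lower for 2.36% of all genes at 7.5 h. After 1 h the Nr1d1 pairs were divided, 6 higher and 8 lower.

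Nr1d2, the REV-ERBβ gene, was called in fewer lines, and at 3 h only in Gad2, where it was higher with the replicate number (log2 difference 0.27, adjusted p = 0.0108). It stood at 1772, 1716 and 1832 in Emx libraries after 7.5 h, against 2809, 2463 and 2481 in the dark, without overlap. The log2 difference was -0.54 ± 0.12 (adjusted p = 0.0210), and the call ended without 7.5 h light replicate 1 or 2 or dark replicate 1 or 2 or 3 (adjusted p 0.0580 to 0.0852). Against 1 h the Emx level at 7.5 h was lower by a log2 difference of -0.59 (adjusted p = 0.0196), a call that ended without 1 h light replicate 1 or 2 or 7.5 h light replicate 1 or 2 or 3 (adjusted p 0.0501 to 0.0836). SST was the other line called at 7.5 h with the replicate number in the model (2043, 1724 and 1889 at 7.5 h, against 2399 and 2384 in the dark, adjusted p = 0.0118, and 0.447 without it). VIP libraries also lay below the dark ones at 7.5 h but were not called under either model, and Gad2 and PV libraries overlapped them.

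**Figure D3:**
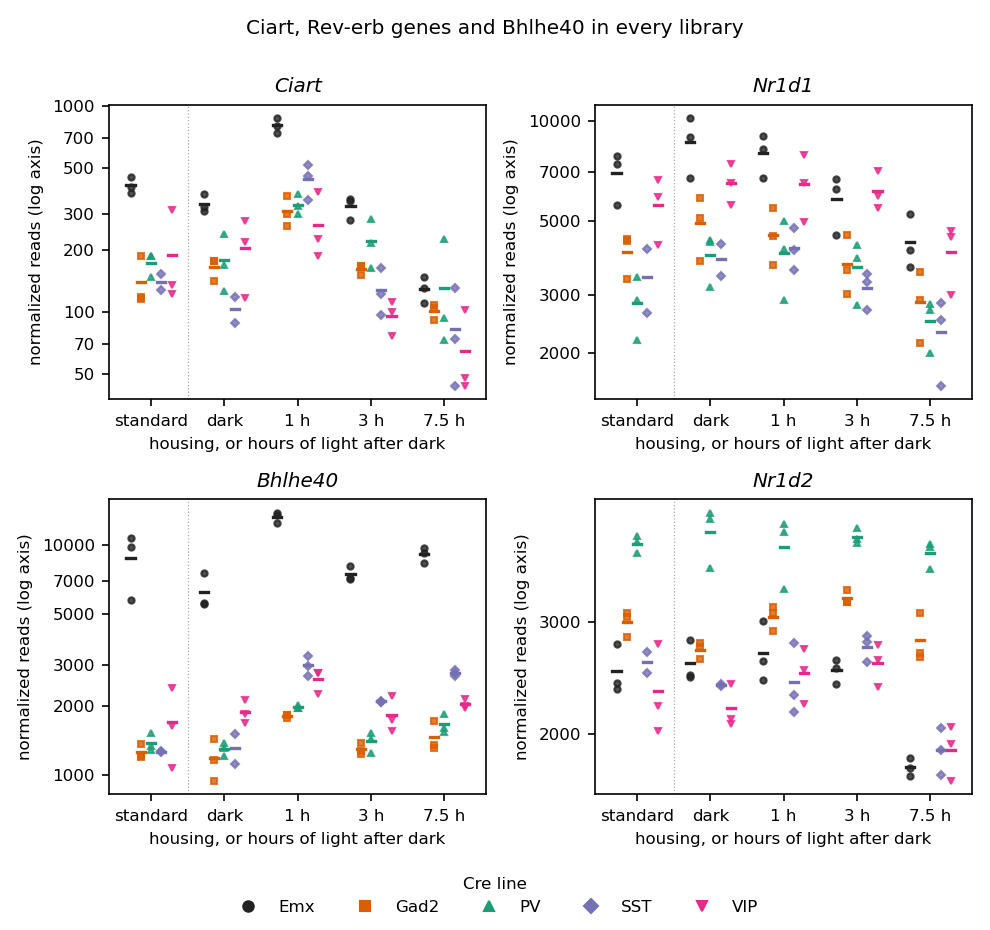
Normalized reads (log axis) of Ciart, Nr1d1, Bhlhe40 and Nr1d2 in every library, by housing condition, with dark and the 3 light times in order to the right of the dotted line. Points are libraries, colours and shapes the Cre lines, and bars group means. Ciart and Bhlhe40 peak at 1 h in each line, Ciart and Nr1d1 are lowest at 7.5 h in each line, and Bhlhe40 stands far higher in Emx than in the other lines.

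Bhlhe40, which encodes the E-box repressor DEC1, was called higher at 1 h in 2 lines. Emx libraries held 13910.0, 13527 and 12545 after 1 h of light, against 7559.5, 5617 and 5564 in the dark. SST libraries held 3310.0, 2969 and 2708 after 1 h and 2683, 2769 and 2868 after 7.5 h, against 1114 and 1507 in the dark. Light and dark did not overlap in these groups. The 1 h rise was 1.11 ± 0.20 on the log2 scale in Emx (adjusted p = 0.0113) and 1.20 ± 0.15 in SST (adjusted p = 0.00226), and the 7.5 h rise in SST was 1.10 ± 0.15 (adjusted p = 0.00321). The Emx call ended without 1 h light replicate 1 or 2 or dark replicate 2 or 3 (adjusted p 0.0607 to 0.0814). The SST call at 1 h ended without dark replicate 1 (adjusted p 0.0628), and that at 7.5 h ended without dark replicate 1 (adjusted p 0.0655).

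In Gad2, PV and VIP the fitted 1 h differences were smaller. The Bhlhe40 response at 1 h did not pass the test between lines (limma, moderated F, adjusted p = 0.640 with the replicate number). Gad2 libraries held 1820.2, 1771 and 1830.4 Bhlhe40 reads after 1 h, against 1436, 1164 and 943 in the dark. PV libraries held 1957, 1956 and 2016 after 1 h, against 1305, 1379 and 1204 in the dark. Both were without overlap and called only with the replicate number in the model (adjusted p = 3.63e-05 in Gad2 and 5.51e-05 in PV, against 0.169 and 0.163 without it). VIP libraries held 2781, 2789 and 2255 after 1 h, against 2124, 1687 and 1839 in the dark, also without overlap. They were not called under either model (adjusted p = 0.669 with the replicate number). All 14 same-numbered pairs were higher at 1 h (median ratio 1.66), which held for 1.25% of all genes. By 3 h 10 of 14 were, with a median ratio of 1.08. Later calls with the replicate number were SST at 3 h (adjusted p = 0.000136, log2 difference 0.69 without it) and, at 7.5 h, Gad2 (0.32, adjusted p = 0.0178) and PV (0.35, adjusted p = 0.00755).

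Bhlhe41, the DEC2 gene, was not called without the replicate number at any light time. With it, Bhlhe41 was lower in Emx at 3 h (log2 difference -0.32, adjusted p = 0.0224) and 7.5 h (-0.63, adjusted p = 2.14e-05). It was also lower in SST at 7.5 h (adjusted p = 0.0430, log2 difference -0.30 without the replicate number). Emx libraries held 952, 1156 and 1537 after 7.5 h, against 1769, 1650.1 and 2159 in the dark, without overlap. Among dark and the 3 light times its mean was lowest at 7.5 h in all 5 lines.

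Between light times the calls were mostly falls. From 1 h to 3 h, 2 of 50 values were called, both lower (0.117% of all genes), and 18 with the replicate number in the model, 4 higher and 14 lower (2.59% of all genes). From 3 h to 7.5 h, 1 was called, lower (0.0408% of all genes), and 16 with the replicate number, 2 higher and 14 lower (2.2% of all genes). From 1 h to 7.5 h, 5 were called, all lower (0.57% of all genes), and 29 with the replicate number, 6 higher and 23 lower (9.74% of all genes). The 6 that were higher at 7.5 h than at 1 h were Cry1 in Emx, Gad2, PV and SST and Per2 in PV and SST. Nr1d1 and Ciart were lower at 7.5 h than at 1 h in all 5 lines with the replicate number in the model.

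Standard housing gave few differences from dark for these genes. No value of 50 was called in limma without the replicate number, against 0.0817% of all genes, and 4 had an unadjusted p under 0.05, against 2.81% of all genes. With it 4 were called, against 0.999% of all genes. They were Per1 and Per2, higher in PV, and Nr1d1, lower in PV and Gad2. PV libraries held 354, 305 and 183 Per2 reads in standard housing, against 210.4, 139 and 92.8 in the dark, and 3393, 2898 and 2188 Nr1d1 reads in standard housing, against 4312, 4384 and 3155 in the dark. The groups overlapped for both genes, while each library lay on the same side of its own dark partner. Nr1d1 was below its dark partner in 14 of 14 pairs in standard housing, with a median ratio of 0.809, where all 14 pairs were lower for 0.211% of all genes. The log2 differences of the 4 were 0.56 for Per1 and 0.95 for Per2 in PV (adjusted p = 8.05e-05 and 0.00154 with the replicate number), and -0.49 in PV and -0.27 in Gad2 for Nr1d1 (adjusted p = 0.000261 and 0.0134).

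Single libraries stood apart in the Emx and VIP standard groups. For Per1 in Emx, replicate 1 held 1484 normalized reads and replicates 2 and 3 held 4881 and 3037. For Per2 it held 578, and the others 1398 and 948. Without that library, 10 of 50 values were called with the replicate number in the model in place of 4. In VIP standard housing replicates 1, 2 and 3 held 4895, 4336 and 1661 Per1 reads, 2385, 1635 and 1072 Bhlhe40 reads, and 135, 122 and 312 Ciart reads. Without VIP replicate 3, 5 values were called in place of 4.

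The size of the light response was compared between lines in a model of all groups. In limma no gene of the 10 passed at any time without the replicate number (lowest adjusted p 0.393, for Nr1d2 at 7.5 h), where 0.0492%, 0.197% and 0.288% of all genes passed at 1, 3 and 7.5 h. An unadjusted p under 0.05 was found for 5 of the 30 values and for 2.88% of all genes. Adding the replicate number, 3 passed: Cry1 at 3 h (adjusted p = 0.0187) and at 7.5 h (adjusted p = 0.00610), and Nr1d2 at 7.5 h (adjusted p = 0.0184), where 1.55% of all genes passed at 3 h and 2.47% at 7.5 h. Without the replicate number the Cry1 log2 difference from dark at 7.5 h was 1.52 for SST, 1.01 for Emx, 0.80 for Gad2, 0.62 for PV and 0.53 for VIP. For Nr1d2 at 7.5 h Emx gave -0.54, SST -0.35, VIP -0.22, PV -0.10 and Gad2 0.05, likewise without it. For the other 8 genes, a call in 1 line and none in another does not show that the lines differ.

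The levels of the 10 genes were compared between lines over all conditions. Counting a difference of at least 1 on the log2 scale, 17 of the 100 comparisons of a gene between 2 lines were called, against 19.7% of all genes over the 10 pairs. Of these 17, 13 were among the 40 comparisons with Emx, where 26.7% of all genes were called. The 17 were Per2 and Per3 in 5 pairs each, Bhlhe40 in 4 and Ciart in 3. At any size 70 of the 100 passed, against 56.5% of all genes, and with the replicate number 81 passed, against 68.8%. Averaged over the libraries of all conditions, Bhlhe40 stood at 9007 ± 2741 normalized reads in Emx (mean ± SD, n = 15), against 2209 ± 739 in SST (n = 13), 2008 ± 456 in VIP, 1543 ± 276 in PV and 1399 ± 268 in Gad2 (n = 15 each). Here and below such means weight each library equally, and SST had fewer dark and standard libraries. The tests between lines weighted each condition equally. The lowest Emx library (5564) lay above the highest library of any other line (3310, in SST). Emx exceeded SST by 2.14 on the log2 scale (adjusted p = 1.26e-30), SST and VIP were not separated (adjusted p = 0.968), and neither were Gad2 and PV (adjusted p = 0.142), also with the replicate number. Per3 followed the order Emx (976 ± 109), VIP (597 ± 136), SST (309 ± 49.9), Gad2 (261 ± 34.8) and PV (230 ± 38.5), in which Gad2 and PV were separated only with the replicate number in the model (adjusted p = 0.0336, and 0.0575 without it). Per2 had the same order, with 1121 ± 433 in Emx, 840 ± 364 in VIP, 519 ± 244 in SST, 374 ± 122 in Gad2 and 306 ± 129 in PV, and here SST and Gad2 were separated only with the replicate number (adjusted p = 0.0274, and 0.170 without it).

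Nr1d2 had its highest level in PV. It stood at 4009 ± 289 in PV, 2974 ± 240.0 in Gad2, 2415 ± 377 in Emx, 2394 ± 359 in SST and 2300 ± 330.2 in VIP. PV exceeded Gad2 by 0.43 on the log2 scale (adjusted p = 5.92e-11), and Emx, SST and VIP were not separated (adjusted p = 0.224 to 0.989). Ciart was highest in Emx (403 ± 234), against 164 ± 101 to 208 ± 85.7 in the other lines, and Nr1d1 in Emx (6738 ± 1912) and VIP (5751 ± 1330.2), which were separated only with the replicate number (adjusted p = 2.90e-05, and 0.0764 without it). Per1 reached 3462 ± 2335 in VIP and 3346 ± 1796 in Emx (adjusted p = 0.891), and 2055 ± 957 to 2482 ± 1482 elsewhere. Cry1 spanned 454 ± 207 in SST to 651 ± 210.1 in Emx, Cry2 3281 ± 441 in PV to 4979 ± 733 in Emx, and Bhlhe41 880 ± 194 in PV to 1621 ± 370 in Emx.

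**Figure D4:**
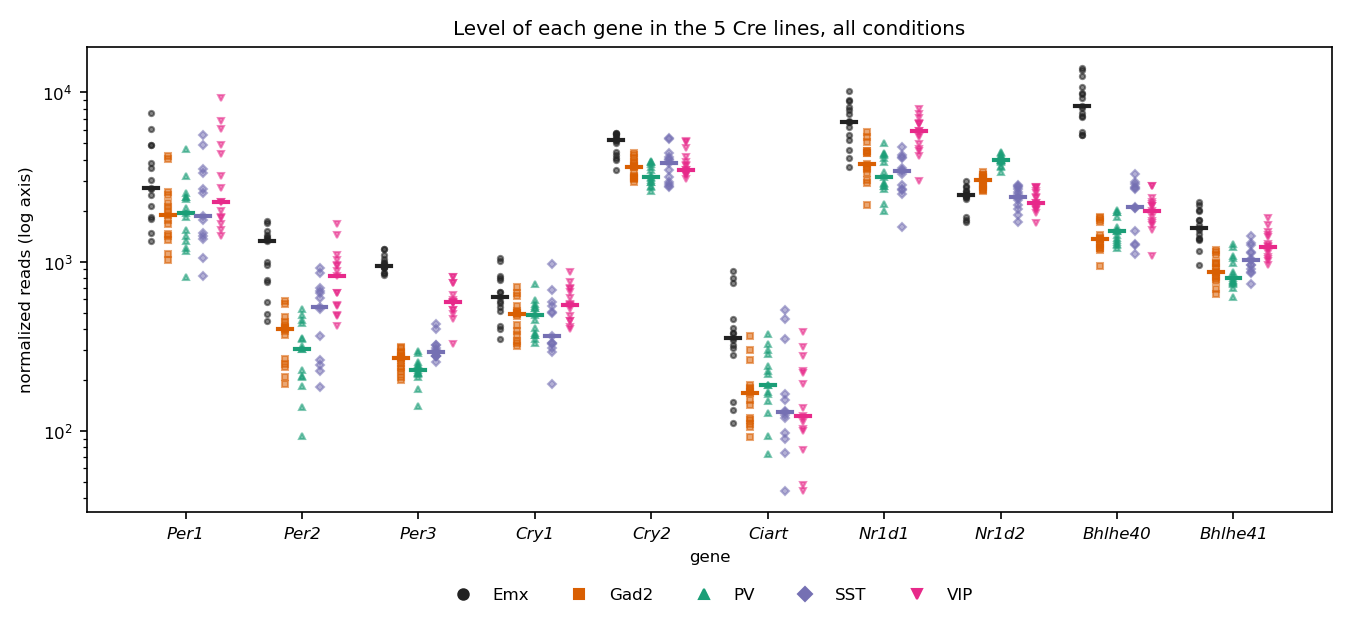
Normalized reads (log axis) of the 10 genes in each of the 5 Cre lines, with every library of all 5 conditions as a point and the median of the line as a bar. Bhlhe40 in Emx libraries (5564 to 13910) lies above all other lines, and Nr1d2 is highest in PV. Heights are not comparable between genes.

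The lines also differed in markers of other cells. The sum of 6 astrocyte markers was 17936 to 22750 in Emx libraries and at most 4025 elsewhere, and that of 6 oligodendrocyte markers was 52423 to 74009 in Emx libraries and at most 14789 elsewhere. None of these markers was at 0 in all libraries of a line. The sum of 7 excitatory markers in VIP libraries averaged 47.5% of its Emx level, against 15.8% in PV, 16.1% in Gad2 and 20.1% in SST. Bhlhe40 averaged 22.3% of its Emx level in VIP, 15.5% in Gad2, 17.1% in PV and 24.5% in SST, and Per3 61.1% in VIP, 26.7% in Gad2, 23.5% in PV and 31.7% in SST. Within lines, 18 of 200 sums over 10 marker lists lay above all dark libraries and 11 below. Inhibitory markers summed to 129811 to 140411 in VIP at 7.5 h, against 105250 to 112965 in the dark. They summed to 137947 to 176823 in SST at 7.5 h, against 118022 to 129248 in the dark, and to 149456 to 161540 in Gad2 at 7.5 h, against 138364 to 149215 in the dark. At 3 h they also lay above dark in these 3 lines and in Emx. Emx oligodendrocyte markers were higher at 1 h (69835 to 74009, against 56651 to 68863 in the dark), and Gad2 microglia markers lower at 1 h (1038 to 1663, against 2096 to 2826 in the dark) and at 3 h. The part of these other cells in the levels and the responses was not tested.

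Most of the 10 genes, like most genes measured, moved with the replicate number. In limma over all groups 9 of 10 were called for it (all but Per3), where 79.2% of all genes were. It took up 83.0% of the variance within groups for Nr1d1, 69.5% for Cry1, 68.4% for Bhlhe41, 64.3% for Per1, 41.3% for Per2 and 3.00% for Per3, with a median of 32.4% over the 10 genes and 43.5% over all genes. Replicate 3 was lower than replicate 1 by a mean log2 difference of -0.47 for Nr1d1 and -0.51 for Per1, and higher by 0.46 for Cry1 and 0.44 for Bhlhe41. The labels do not say what a number marks, so whether it is a day, a litter or a time of day cannot be told apart.

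**Figure D5:**
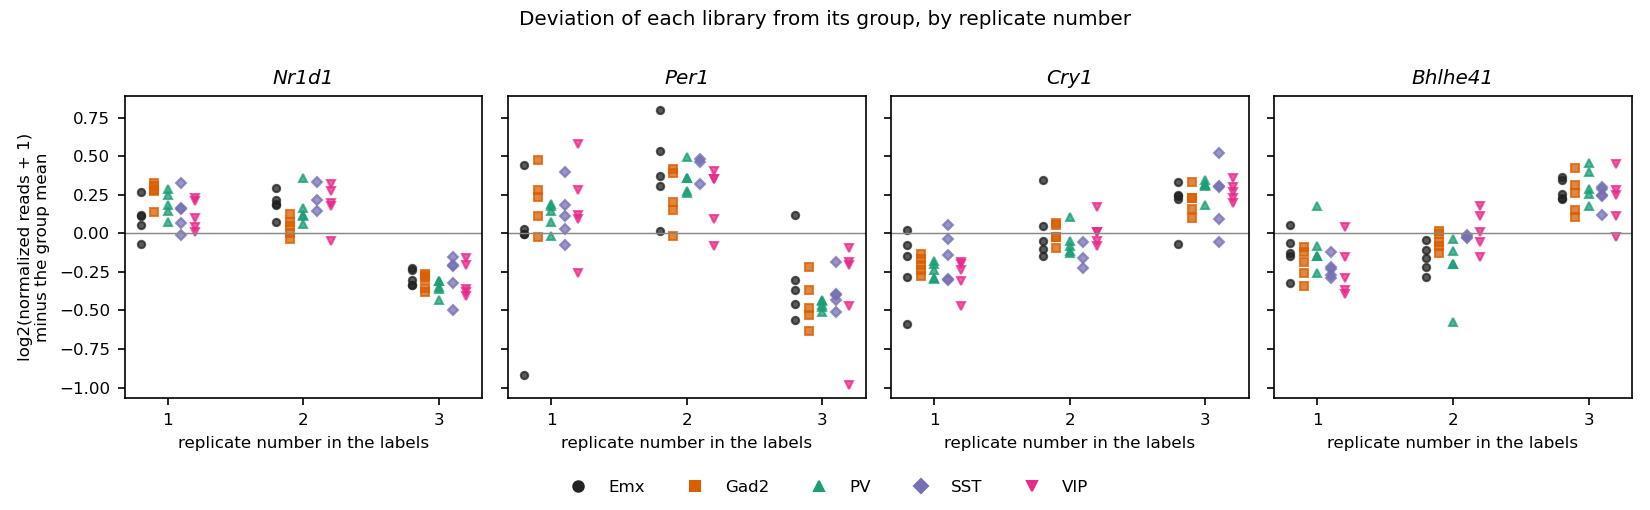
Deviation of each library from the mean of its group on the log2 scale, by replicate number, for Nr1d1, Per1, Cry1 and Bhlhe41, with colours and shapes for the Cre lines. In replicate 3, Nr1d1 is below 0 in every group and Cry1 and Bhlhe41 are above 0 in most groups.

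Among 19 other clock genes (activators, outputs and modifiers of the loop), 4 of 95 values were called at 1 h, 1 at 3 h and 5 at 7.5 h. Of all genes, 0.325%, 0.393% and 1.18% were called at these times. None was called by limma in standard housing, where 5 had an unadjusted p under 0.05, against 0.0817% and 2.81% of all genes. The fit with the replicate number gave 6, 9 and 36 at the light times and 7 in standard housing. The shares of all genes were then 1.33%, 4.8%, 12.1% and 0.999%. All 5 calls at 1 h and 3 h were higher Nfil3, which encodes E4BP4, a repressor of D-box genes, with log2 differences of 1.15 in PV to 1.82 in Emx at 1 h (adjusted p = 0.0444 at most). At 7.5 h Nfil3 was higher in Emx (1.56, adjusted p = 0.00177) and PV (0.99, adjusted p = 0.0220). Dbp, an activator at the same D-boxes and a direct clock output, was lower at 7.5 h in Emx (log2 difference -1.64, adjusted p = 0.000618), Gad2 (-1.20, adjusted p = 0.00892) and VIP (-1.84, adjusted p = 0.0180). With the replicate number in the model Dbp was lower in all 5 lines (adjusted p = 0.000133 at most). The activator gene Arntl was called against dark in 2 groups, both with the replicate number: higher in Emx at 7.5 h (log2 difference 0.42, adjusted p = 0.00866) and lower in VIP at 3 h (-0.95, adjusted p = 0.0333). In a list of 19 light-responsive early transcription factors, 66 of 95 values were called at 1 h, 41 at 3 h, 50 at 7.5 h and 30 in standard housing, all higher. Of all genes, 0.325%, 0.393%, 1.18% and 0.0817% were called in the same comparisons (0.323%, 0.372%, 0.884% and 0.0803% higher).

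The genes most like each of the 10 were ranked by Pearson's r over 20 differences from dark (5 lines by 4 conditions, which share their dark libraries) among 11920 genes. For Per1 they were Dusp1 (r = 0.908), Npas4 (0.900) and Nr4a1 (0.892), a phosphatase and 2 transcription factors that neuronal activity is known to induce. Trim9 (r = 0.933), Hipk1 (0.917) and Cdh22 (0.890) led for Cry1, and Capn5 (0.879), Calcoco1 (0.876) and Gpr137c (0.870) for Ciart. Nr1d1 was closest to Zfp414 (0.907), 9430021M05Rik (0.886) and Dbp (0.885), and Bhlhe40 to Celsr3 (0.908). The closest gene was Socs7 (0.848) for Per2, Prrt1 (0.796) for Per3, Gm1821 (0.823) for Cry2, Enpp5 (0.862) for Nr1d2 and Mrap2 (0.864) for Bhlhe41. The values are descriptions, and no p-value is given for them.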

How the data were processed

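Ribosome-bound RNA was purified with the RiboTag method from 5 Cre lines and, per the labels' protocols, amplified by SPIA and sequenced as single-end reads. The submitters' processing notes name TopHat2 2.0.13, Bowtie2 2.1.0.0, BWA, Cuffnorm, Cuffdiff 2.2.1 and the mm9 build, without saying which made the table. The authors deposited 1 normalized read count per gene and library, a signal scaled by 1 factor per library and not by gene length. Between 92.88 and 96.42% of low values were whole multiples of a library's smallest step (within 0.1 reads, up to 20 reads), which gave the depth, but not firmly enough for a count model. Of 14284 rows, 23 with date names were dropped. Of 75 labelled samples, 2 had empty columns.

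Values were tested as log2(value + 1) with limma 3.58.1 (R 4.3.3, statmod 1.5.0; robust, trended moderation), each line by itself, on genes at 1 or more in at least 3 libraries, with Benjamini-Hochberg adjustment over all of them and a 5% threshold. Genes at 0 in 1 library while the median of the others reached 50 reads were set aside, none of them a clock repressor. Line-by-light interaction (4 degrees of freedom), line pairs (absolute log2 difference of at least 1) and replicate number were tested in 1 model of all groups. The pairing of replicate numbers was checked by correlating deviations from group means: all 56 correlations exceeded 0.1 (0.174 to 0.814, median 0.678), so fits with the number as a block are given beside the others. In SST the block also changes the estimate, because replicate 2 is absent in the dark and in standard housing. Samples are labelled as biological replicates. All 10 genes were named by rule, with every library's value where called. Of 19 other clock genes the called ones were to be named, and of the genes most like each (mean value of at least 50) the 3 closest. The genes and lists were chosen with earlier results of these data known. Alternatives were other pseudocounts (0.1 and 10), no filter, TMM rescaling, all lines in 1 model, the replicate block, and leaving out 1 library at a time. Promoter windows of 250 bases come from RefSeq (GRCm38.p6), a build other than that of the files, and were matched by symbol for 8 of 10 genes.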

Additional observations from a re-analysis of the deposited data

Results flagged for a closer look

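The light response of 2 genes differed between the 5 Cre lines in a test of the difference itself, with the replicate number in the model. For Cry1 the adjusted p was 0.0187 at 3 h and 0.00610 at 7.5 h, and for Nr1d2 it was 0.0184 at 7.5 h (limma, moderated F). Cry1 differed from dark at 3 h by a log2 difference of 1.23 in SST, 0.87 in Emx, 0.67 in Gad2, 0.38 in VIP and 0.34 in PV. At 7.5 h the Cry1 differences were 1.52 in SST, 1.01 in Emx, 0.80 in Gad2, 0.62 in PV and 0.53 in VIP. Nr1d2 at 7.5 h had a log2 difference of -0.54 in Emx, -0.35 in SST, -0.22 in VIP, -0.10 in PV and 0.05 in Gad2. Without the replicate number none of the 3 passed after adjustment, and the log2 differences given here are those fitted without it.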

How the results depend on the processing

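Counts of calls depended most on the replicate block. Among 50 values they were, with it, 19 at 1 h, 19 at 3 h, 27 at 7.5 h and 4 in standard housing against dark, 18 for 3 h against 1 h, 16 for 7.5 h against 3 h, 29 for 7.5 h against 1 h, and 3 among 30 values for the interaction with line. Between lines the block left 17 calls and let 11 more of 100 comparisons pass at any size. All 28 calls made without the block were also made with it. With all lines in 1 model there were 7 at 3 h, 4 for 3 h against 1 h, 4 for 7.5 h against 3 h and 10 for 7.5 h against 1 h. The cause was not tested. Leaving out 1 library at a time gave 3 to 7 calls at 1 h, 2 to 5 at 3 h, 6 to 10 at 7.5 h, 0 to 1 in standard housing, 1 to 2 for 3 h against 1 h, 1 for 7.5 h against 3 h, and 3 to 6 for 7.5 h against 1 h. Leaving out 1 replicate number gave 0 calls for the interaction without the block, as with all libraries. The 3 interaction calls made with the block were not tested in this way. For line pairs it gave 18 to 19 (17 with all libraries) and for the replicate number 5 to 7 (9 with all libraries). With the block and 1 library left out, which was added after seeing the data, the counts were 16 to 20 at 1 h, 17 to 19 at 3 h, 23 to 29 at 7.5 h and 3 to 10 in standard housing. Of 28 single calls, 8 held under every leave-out, and 76 of 160 leave-outs ended a call. All lines in 1 model ended 4, a pseudocount of 0.1 ended 2, no filter ended 1, and TMM rescaling and a pseudocount of 10 ended none. No called value changed sign. TMM rescaling moved the median of all genes by at most 0.0276 on the log2 scale. The planned edgeR alternative was not run, because the share of values that came out as whole reads was too low for a count model. Depth limits Ciart most, at 21 reads in its lowest library.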
